A study of Mus musculus with 4 samples.

Results

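The genes described here encode subunits of chromatin remodelling complexes and of the Polycomb complexes. They were chosen by name as 57 genes: 23 of the BAF and PBAF complexes, 17 CHD remodellers and NuRD subunits, 7 of the ISWI, INO80 and EP400 complexes and 10 of Polycomb. Each gene was read from probe sets that name it alone, and where several do, the brightest of them over the 4 arrays was used. All 57 were measured, of 19937 genes named in this way, and all 57 lay above the level at which genes were tested, as did 13956 genes in all.

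RNA came from primary neurospheres grown from the lateral walls of the lateral ventricles of 9 to 12 week old C57BL/6 mice, a region that holds neural stem and progenitor cells. In 2 cultures the medium held 100 nM olaparib, which blocks the poly(ADP-ribose) polymerases PARP1 and PARP2, dissolved in 0.01% DMSO. In 2 others it held 0.01% DMSO alone, and each culture gave 1 array. Both groups received non-targeting siRNAs and, for 5 h, viral particles carrying Pax6 (pCLIG-Pax6), were cultured for 36 h with the drug or solvent still present, and were then plated on laminin without growth factors, 10 h before RNA was taken. The share of cells that took up the virus is unknown, and both groups carry Pax6, so nothing below compares cells with and without it. The labels call the second array of each group a biological replicate of the first without saying whether separate animals were used. The p-values therefore speak for these cultures only. Those from limma rest mostly on a spread shared across genes of like level, beside each gene's own. The comparison asks, as the design sets it, which transcripts differ when PARP is inhibited during neuronal differentiation.

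Chromatin remodellers use ATP to slide, evict or exchange nucleosomes, and each complex is built around a catalytic subunit of the Snf2 family. BAF complexes change subunits as progenitors become neurons: Actl6a, Phf10 and Ss18 give way to Actl6b, Dpf1 or Dpf3, and Ss18l1. In adult mouse neural progenitors Pax6 binds the BAF complex. NuRD joins a CHD remodeller to histone deacetylases, and the Polycomb complexes PRC2 and PRC1 methylate histone H3 and ubiquitylate histone H2A at silenced developmental genes. In human cells, Chd4, Smarca5 and the related Chd1l gather at sites of DNA damage in a way that depends on poly(ADP-ribose), the product of PARP enzymes.

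Of the 57 members, 1 rose with olaparib, 2 fell and 54 did not pass an adjusted p of 0.05 in limma, so that 5.26% were called, against 6.22% of all genes tested (2.84% higher and 3.37% lower). Eed, a subunit of PRC2, rose. The remodeller gene Chd7 and the PBAF gene Pbrm1 fell. A share this close to that of all genes is not a result about these complexes as a set. The median change over the 57 members was -0.05 on the log2 scale, against 0.00 over all genes tested, and changes ran from -0.56 to 0.39. An unadjusted p under 0.05 was reached by 13 members, or 22.8%, and by 19.1% of all genes.

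The groups did not overlap in 32 of the 57 members, or 56.1%, against 47.1% of all genes tested. Both olaparib arrays lay below both DMSO arrays in 22 members, or 38.6%, against 23.9% of all genes tested, and above them in 10 members, or 17.5%, against 23.2%. The olaparib arrays differed in this. Measured from each member's own mean over the 4 arrays, the median member lay at -0.08 on olaparib array 1 and 0.02 on olaparib array 2, against 0.03 and 0.02 on the DMSO arrays. Olaparib array 2 was the higher of its pair in 39 of 57 members, or 68.4%, and in 55.4% of all genes tested. Without olaparib replicate 1 the median change over the members was -0.01, 7 members rose and 3 fell. Without olaparib replicate 2 it was -0.09, 1 rose and 5 fell. The share of all genes called also moved with the setting. It was 15.1% without olaparib replicate 1, 11.5% without olaparib replicate 2, 1.85% without DMSO replicate 1 and 2.1% without DMSO replicate 2. It was 2.87% with no filter on dim genes, 10.1% with a filter at the 50th percentile, 9.39% after quantile normalization, 9.06% after cyclic loess and 4.66% after median centring. It was 6.12% without the intensity trend, 6.87% with robust eBayes and 6.05% with the mean over each gene's probe sets. The median SD of a member was 0.09 with olaparib and 0.05 with DMSO. The plot of changes by complex shows that most intervals cross 0.

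**Figure D1:**
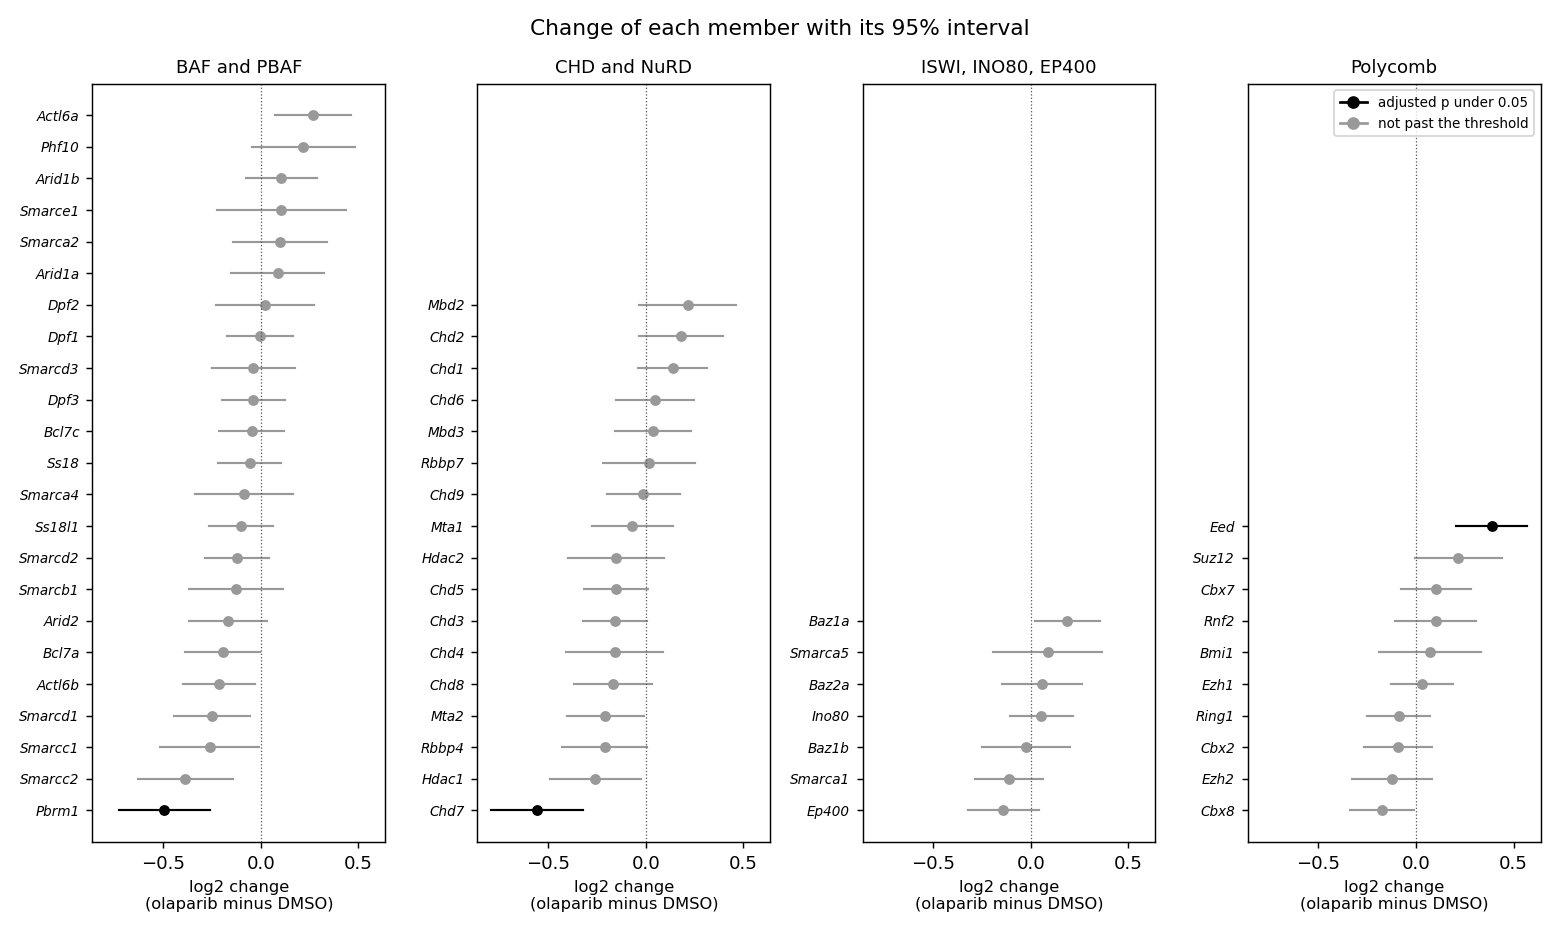
Log2 change (olaparib minus DMSO, x axis) of each of the 57 members, in 4 panels by complex, with the 95% interval from limma as a line. The 3 members past an adjusted p of 0.05, in black, are Pbrm1 at -0.49, Chd7 at -0.56 and Eed at 0.39, and the other 54 are grey.

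Chd7 is a CHD remodeller that acts at enhancers, is needed for adult neurogenesis in mice, and is mutated in human CHARGE syndrome. Its log2 values were 8.80 and 8.82 with olaparib, against 9.50 and 9.23 with DMSO. Both olaparib arrays lay below both DMSO arrays, and the DMSO arrays differed by more between themselves than the olaparib arrays did. The change was -0.56 on the log2 scale (SE 0.11, 95% interval -0.79 to -0.32, adjusted p = 0.00499 in limma), a 1.47-fold lower level. Without DMSO replicate 1 Chd7 differed by -0.42 and did not pass (adjusted p = 0.350). Bulk RNA does not separate fewer cells of a type from less RNA per cell, here or for any gene below.

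The array carries 30 probe sets that name Chd7 alone. Of these, 27 were lower with olaparib and 3 higher, with a median change of -0.25 and a range of -0.56 to 0.28. The groups did not overlap on 19 probe sets, and on all 19 the olaparib arrays were the lower ones. The probe set used for the gene has the highest level of the 30 and also the most negative difference. The 2 next brightest differed by -0.06 and 0.28, both with overlapping groups. The mean over the 30 probe sets differed by -0.23 and did not pass (adjusted p = 0.125 in limma). Probe sets of a gene share its RNA and are not replicates, so their count carries no test.

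**Figure D2:**
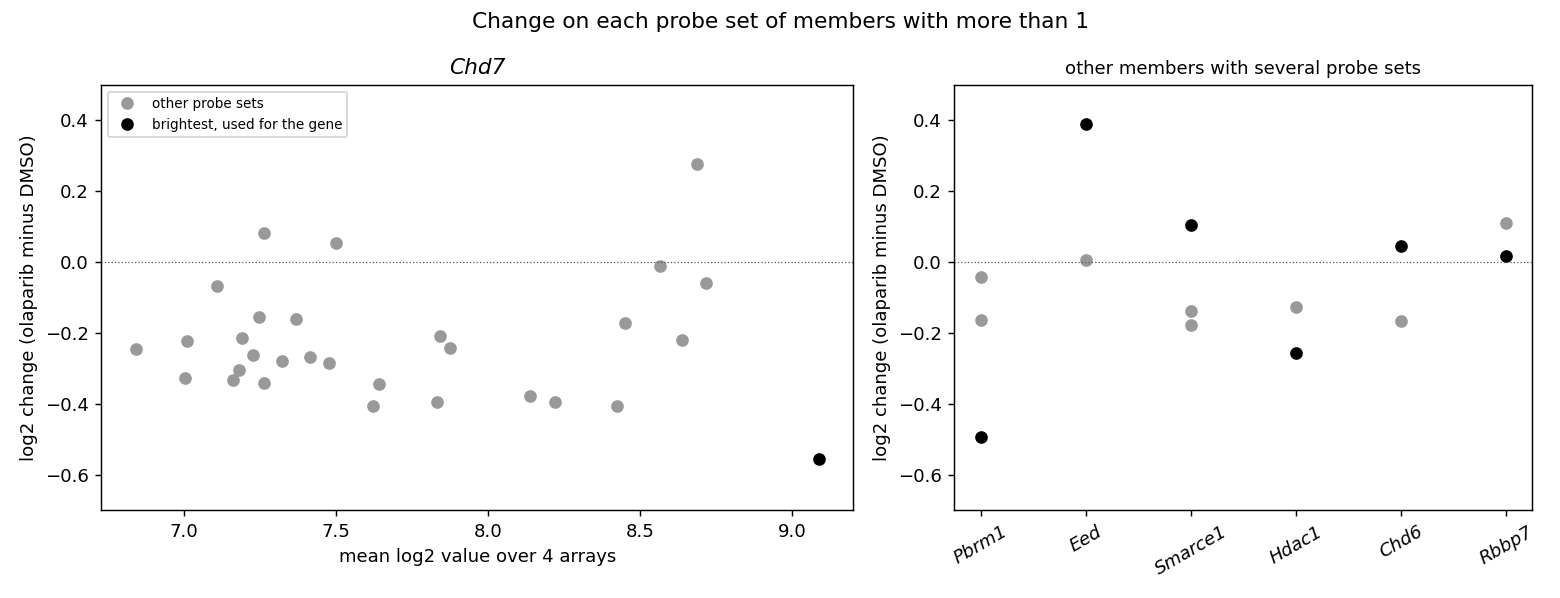
Log2 change (olaparib minus DMSO, y axis) on each probe set of the 7 members that have more than 1: left, the 30 probe sets of Chd7 against their mean log2 value (x axis), right, the 6 other members by name. Black marks the brightest probe set, used for the gene; for Pbrm1, Eed and Chd7 it shows the largest change of its gene, and for Smarce1 and Chd6 its sign differs from the other probe sets.

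Pbrm1 encodes the polybromo subunit that, with Arid2, marks the PBAF form of the complex and reads acetylated histones. It had log2 values of 9.08 and 9.19 with olaparib, against 9.68 and 9.57 with DMSO. The groups were well apart, with each pair tight. The change was -0.49 on the log2 scale (SE 0.11, 95% interval -0.73 to -0.26, adjusted p = 0.00998 in limma), or 1.41-fold lower. The other 2 probe sets of Pbrm1 differed by -0.04, with overlapping groups, and by -0.16, with 8.22 and 8.33 for olaparib against 8.38 and 8.49 for DMSO. The mean of the 3 differed by -0.23 (adjusted p = 0.214), and Pbrm1 lost its call with either DMSO array left out (adjusted p = 0.368 without DMSO replicate 1 and 0.126 without DMSO replicate 2) and under median centring (adjusted p = 0.0621). Its partner Arid2, the other member classed here as PBAF, differed by -0.17 (adjusted p = 0.374). Arid2 lay at 8.10 and 8.15 with olaparib, against 8.22 and 8.36 with DMSO. Phf10, which is also a subunit of PBAF, differed by 0.22 with overlapping groups (adjusted p = 0.387).

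Eed binds the trimethyl mark that PRC2 deposits and stimulates the enzyme. It had log2 values of 8.04 and 8.01 with olaparib, against 7.67 and 7.60 with DMSO. The olaparib arrays were the higher ones, and the gap between groups was larger than the gap within either pair. The change was 0.39 on the log2 scale (SE 0.09, 95% interval 0.21 to 0.57, adjusted p = 0.00968 in limma), or 1.31-fold higher. Its other probe set lay at 6.32 and 6.29 with olaparib and 6.25 and 6.35 with DMSO, under the level at which genes were tested. With either DMSO array left out, Eed lost its call (adjusted p = 0.0892 without DMSO replicate 1 and 0.219 without DMSO replicate 2), as it did with the mean of both probe sets (0.20, adjusted p = 0.140). None of the 3 called members passed when all 21704 probe sets that reached the signal minimum were fitted together, where 0.086% of genes were called and the adjusted p was 0.133 for Chd7, 0.136 for Pbrm1 and 0.137 for Eed.

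**Figure D3:**
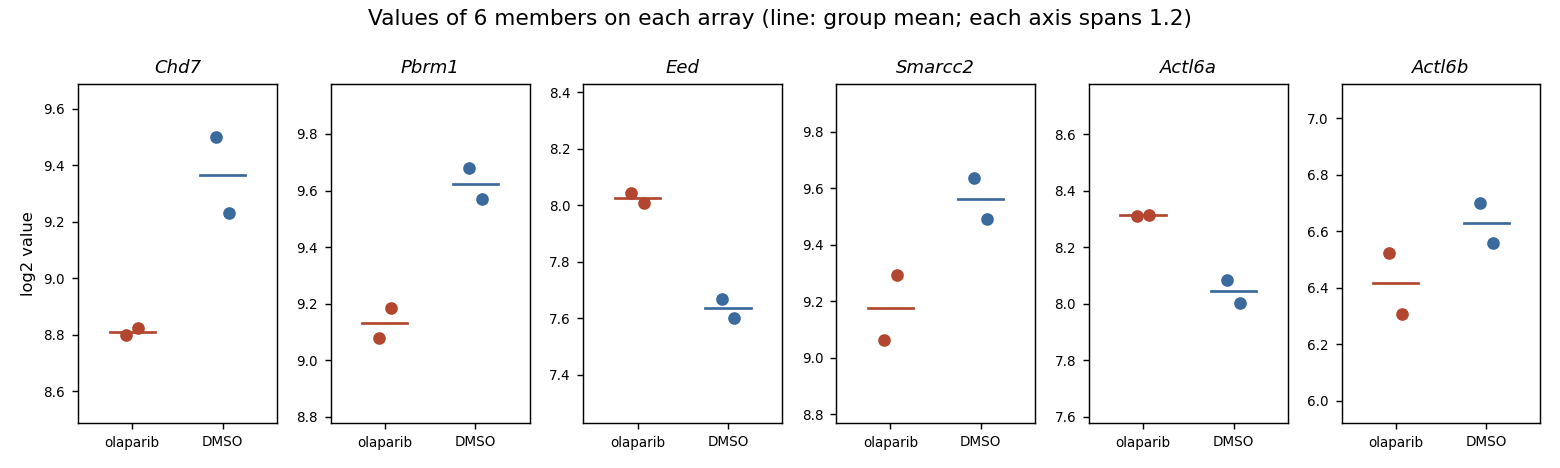
Log2 values (y axis, each panel spanning 1.2) of Chd7, Pbrm1, Eed, Smarcc2, Actl6a and Actl6b on the 2 olaparib arrays (left, red) and the 2 DMSO arrays (right, blue), with lines at group means. In all 6 genes the groups do not overlap; Eed and Actl6a lie higher with olaparib and the other 4 lower.

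The promoters of Pbrm1 and Eed are shown because these are the called members with an entry among the RefSeq promoters used, and they moved in opposite directions. Each runs from 250 bases before the gene start to 50 after it, 5′ to 3′ on the gene's strand, in build GRCm38.p6. Capitals mark matches to 3 motifs, each searched on both strands. The GC box was searched as GGGCGG. The ETS core was searched by its letters CCGGAA. The CCAAT box is its own name. Matches do not overlap in these windows. Pbrm1 lies at chr14:31018888-31019187 on the plus strand and Eed at chr7:89980927-89981226 on the minus strand.
Pbrm1: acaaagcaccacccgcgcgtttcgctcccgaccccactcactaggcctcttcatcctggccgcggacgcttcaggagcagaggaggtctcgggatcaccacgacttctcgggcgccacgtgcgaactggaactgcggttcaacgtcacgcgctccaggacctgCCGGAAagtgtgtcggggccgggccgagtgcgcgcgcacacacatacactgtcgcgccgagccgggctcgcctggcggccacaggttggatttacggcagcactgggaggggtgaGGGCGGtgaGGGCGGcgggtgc
Eed: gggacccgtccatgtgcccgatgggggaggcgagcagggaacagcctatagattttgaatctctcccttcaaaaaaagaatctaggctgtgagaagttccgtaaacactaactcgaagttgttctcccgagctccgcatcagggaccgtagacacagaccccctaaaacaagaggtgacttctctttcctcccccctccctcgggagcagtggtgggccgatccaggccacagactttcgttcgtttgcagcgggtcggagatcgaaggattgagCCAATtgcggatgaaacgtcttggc

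The Pbrm1 window holds 2 GC boxes, 1 ETS core and 35 CpG dinucleotides, and the Eed window 1 CCAAT box and 17 CpG dinucleotides. Of the 57 members, 45 had an entry, with 49 promoters in all. A GC box was in 89.8% of these 49, in 60.1% of promoters of all genes tested and in 35.7% of all 32851 promoters of this length. A CCAAT box was in 38.8%, 37.1% and 37.4%, and an ETS core in 20.4%, 24.3% and 14.9%, over the same 3 sets. The median promoter held 31 CpG dinucleotides for the members, 19 for the genes tested and 7 over all. These are counts of letters and say nothing of which factors bind.

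PRC2 has 4 members here, of which Eed alone passed. The groups did not overlap in any of the 4, against 47.1% of all genes tested. Besides Eed, the scaffold subunit Suz12 lay at 8.77 and 8.86 with olaparib, against 8.49 and 8.70 with DMSO, a difference of 0.22 that did not pass (adjusted p = 0.281). The methyltransferase gene Ezh2, the form typical of dividing cells, lay at 8.42 and 8.39 with olaparib, against 8.50 and 8.55 with DMSO. Ezh2 differed by -0.12 (95% interval -0.33 to 0.08, adjusted p = 0.578). Its paralog Ezh1, the form of resting cells, differed by 0.03 (95% interval -0.13 to 0.19, adjusted p = 0.896). Eed, Suz12 and Ezh1 lay higher with olaparib and Ezh2 lower. Of 12 proliferation genes listed beside Ezh2, 11 were measured. Rrm2 rose by 0.37, Plk1 fell by 0.40 and 9 did not pass, while 6.22% of all genes tested were called. The median change of the 11 was -0.03. The part of the proliferation genes in the Ezh2 values was not tested.

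PRC1 held 6 members. None passed in limma, and 1 had an unadjusted p under 0.05, or 16.7%, against 19.1% of all genes tested. The ubiquitin ligase subunits Rnf2 and Ring1 differed by 0.10 (adjusted p = 0.679) and -0.09 (adjusted p = 0.639). Bmi1, which keeps neural stem cells self-renewing, lay at 8.88 and 9.30 with olaparib, around the 8.97 and 9.06 of the DMSO arrays. It differed by 0.07 (95% interval -0.19 to 0.33, adjusted p = 0.851), by -0.14 without olaparib replicate 2, and by 0.28 without olaparib replicate 1, where it passed (adjusted p = 0.0419). Among the Cbx subunits, which read the PRC2 mark, Cbx8 had the most negative difference, -0.17, with 6.79 and 6.92 for olaparib against 7.07 and 6.98 for DMSO (adjusted p = 0.237). Cbx7 had the most positive, 0.10 (adjusted p = 0.593), and Cbx2 lay at -0.09. The 10 Polycomb members together had a median change of 0.05, with 3 above and 3 below without overlap, or 30% each, close to the 23.2% and 23.9% of all genes tested.

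The catalytic subunits of BAF did not pass. Smarca4 (Brg1), one of its alternative ATPases, lay at 9.59 and 9.85 with olaparib, and the DMSO arrays at 9.83 and 9.78 lay between these values. It differed by -0.09 (95% interval -0.34 to 0.16, adjusted p = 0.800). Smarca2 (Brm), the other ATPase, differed by 0.10 (95% interval -0.14 to 0.34, adjusted p = 0.748). Among the core subunits, the scaffold subunit Smarcc2 came nearest to the threshold. It lay at 9.06 and 9.29 with olaparib, against 9.64 and 9.49 with DMSO, a difference of -0.39 (SE 0.12, adjusted p = 0.0539). It passed in 6 of 14 alternatives, with adjusted p from 0.000381 to 0.743. Its paralog Smarcc1 differed by -0.26 (adjusted p = 0.246), and its olaparib arrays at 8.50 and 8.88 overlapped the DMSO arrays at 8.85 and 9.05. Without olaparib replicate 2 Smarcc1 differed by -0.45 and passed (adjusted p = 0.00135), and without olaparib replicate 1 it differed by -0.07.

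The other core subunits had smaller differences. Smarcd1 lay at 8.02 on both olaparib arrays, against 8.21 and 8.33 with DMSO, a difference of -0.25 (adjusted p = 0.132). Bcl7a differed by -0.19 (adjusted p = 0.257), also with separate groups. Smarcb1 differed by -0.13, Smarcd2 by -0.12, Bcl7c by -0.05 and Smarcd3 by -0.04. Arid1a and Arid1b, the alternative subunits that define canonical BAF, differed by 0.09 and 0.11. Of the 13 core members, 9 differed in the negative direction, or 69.2%, against 49.5% of all genes tested. Olaparib arrays lay below both DMSO arrays in 4 of the 13, or 30.8%, near the 23.9% of all genes tested. Smarce1 stands at 0.10 on its brightest probe set, with 8.61 and 9.36 for olaparib and 8.92 and 8.83 for DMSO. Its other 2 probe sets differed by -0.18 and -0.14 with separate groups, so the sign of this gene depends on the probe set. Without olaparib replicate 1 it was 0.48 and passed (adjusted p = 0.000396), and without olaparib replicate 2 it was -0.27.

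None of the 8 subunits classed here as exchanged between progenitor and neuronal BAF, with Dpf2 included as a general form, passed in limma. Actl6a and Actl6b alone of the 8 had an unadjusted p under 0.05, against 19.1% of all genes tested. Actl6a, the actin-like subunit of progenitors, lay at 8.31 on both olaparib arrays, against 8.08 and 8.00 with DMSO, a difference of 0.27 (SE 0.09, 95% interval 0.07 to 0.46, adjusted p = 0.0994). It passed without olaparib replicate 1 (adjusted p = 0.0448). Actl6b, its neuronal counterpart, lay at 6.52 and 6.31 with olaparib, against 6.70 and 6.56 with DMSO, a difference of -0.21 (SE 0.09, 95% interval -0.40 to -0.03, adjusted p = 0.180). It passed without olaparib replicate 1 (adjusted p = 0.00295) and under median centring (adjusted p = 0.033). Each had groups that did not overlap, in opposite directions. Group means of Actl6b lie within those of 23 genes of tissues unrelated to brain. Those of Smarcd2, Dpf1, Dpf3, Chd5, Smarca1, Cbx7 and Cbx8 do too. The 23 genes had group means from 6.07 to 7.09 with olaparib and from 5.92 to 7.10 with DMSO. Gcg alone sets both upper ends. The next highest group means were 6.79 with olaparib (Tnnt2) and 6.87 with DMSO (Ckm). The change of Actl6b minus that of Actl6a was -0.48, and an exact permutation test over the 4 arrays (two-sided) gave p = 0.333, the smallest that 2 against 2 arrays allow.

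The subunits with plant homeodomain fingers and the Ss18 pair follow. Phf10, of progenitor BAF and of PBAF, lay at 8.62 and 9.10 with olaparib, against 8.60 and 8.69 with DMSO, a difference of 0.22 (adjusted p = 0.387), with olaparib array 2 well above the other 3 arrays. Without olaparib replicate 1 it was 0.46 and passed (adjusted p = 0.000658), and without olaparib replicate 2 it was -0.02. Dpf2, the general form, differed by 0.02 (adjusted p = 0.963). The neuronal forms Dpf1 and Dpf3 differed by 0.00 and -0.04 (adjusted p = 0.992 and 0.879), at group means of 6.84 to 6.95. Ss18 and its neuronal counterpart Ss18l1 differed by -0.06 and -0.10 (adjusted p = 0.796 and 0.578). All 4 neuronal subunits had negative differences, against 49.5% of all genes tested, with a median of -0.07. Dpf1, at -0.0043, changed sign in 4 of 14 settings. Of 12 neuroblast genes listed beside the neuronal subunits, 10 were tested. All 10 had negative differences, against 49.5% of all genes tested, with a median of -0.23. Dcx and Map2 fell by 1.05 and 0.55 and 8 did not pass, while 6.22% of all genes tested were called. Of the 10, Dlx1, Dlx2, Elavl4 and Gad1 had group means within the range of the genes unrelated to brain. Neuroblast group means ran from 6.34 to 10.0 with olaparib and from 6.40 to 10.6 with DMSO. No ependymal gene passed. The 5 tested had a median difference of -0.15, with olaparib arrays below both DMSO arrays in all 5, against 23.9% of all genes tested. Ccdc153 and Dnah11 had group means within the range of the genes unrelated to brain, and Rsph1 and Mia did with olaparib. The part of either list in the BAF values was not tested.

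None of the 11 NuRD subunits passed in limma, and 2 had an unadjusted p under 0.05, or 18.2%, against 19.1% of all genes tested. Their median change was -0.15, and 8 of the 11 differed in the negative direction, or 72.7%, against 49.5% of all genes tested. In 7 of the 11 both olaparib arrays lay below both DMSO arrays, against 23.9% of all genes tested. The deacetylase genes Hdac1 and Hdac2 had separate groups. Hdac1 lay at 9.26 and 9.39 with olaparib, against 9.58 and 9.59 with DMSO, a difference of -0.26 (95% interval -0.49 to -0.02, adjusted p = 0.204). It passed under quantile normalization, cyclic loess and without olaparib replicate 2, and its second probe set differed by -0.13 with overlapping groups. Hdac2 lay at 10.19 and 10.31 with olaparib, against 10.41 and 10.39 with DMSO, a difference of -0.15 (adjusted p = 0.566).

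The 3 alternative ATPases of NuRD did not pass. Chd4 lay at 9.48 and 9.72 with olaparib, against 9.78 and 9.75 with DMSO, a difference of -0.16 (95% interval -0.41 to 0.09, adjusted p = 0.540). Chd3 and the neuronal Chd5 differed by -0.16 (adjusted p = 0.293) and -0.15 (adjusted p = 0.314). The histone chaperone Rbbp4 lay at 8.71 and 8.78 with olaparib, against 8.96 and 8.95 with DMSO, a difference of -0.21 (adjusted p = 0.275), while its paralog Rbbp7 differed by 0.02. Both serve PRC2 as well. Mta2 differed by -0.21 (adjusted p = 0.233) and Mta1 by -0.07. The methyl-CpG-binding subunit Mbd2 had the largest positive difference, 0.22 (adjusted p = 0.354), with 9.69 and 9.95 for olaparib against 9.58 and 9.63 for DMSO, and Mbd3 differed by 0.04. Without olaparib replicate 1 Mbd2 differed by 0.35 and passed (adjusted p = 0.0132), and without olaparib replicate 2 it differed by 0.09. Olaparib array 1 was the lower of its pair in 10 of the 11 genes, or 90.9%, against 55.4% of all genes tested. The plot of NuRD values shows these arrays.

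**Figure D4:**
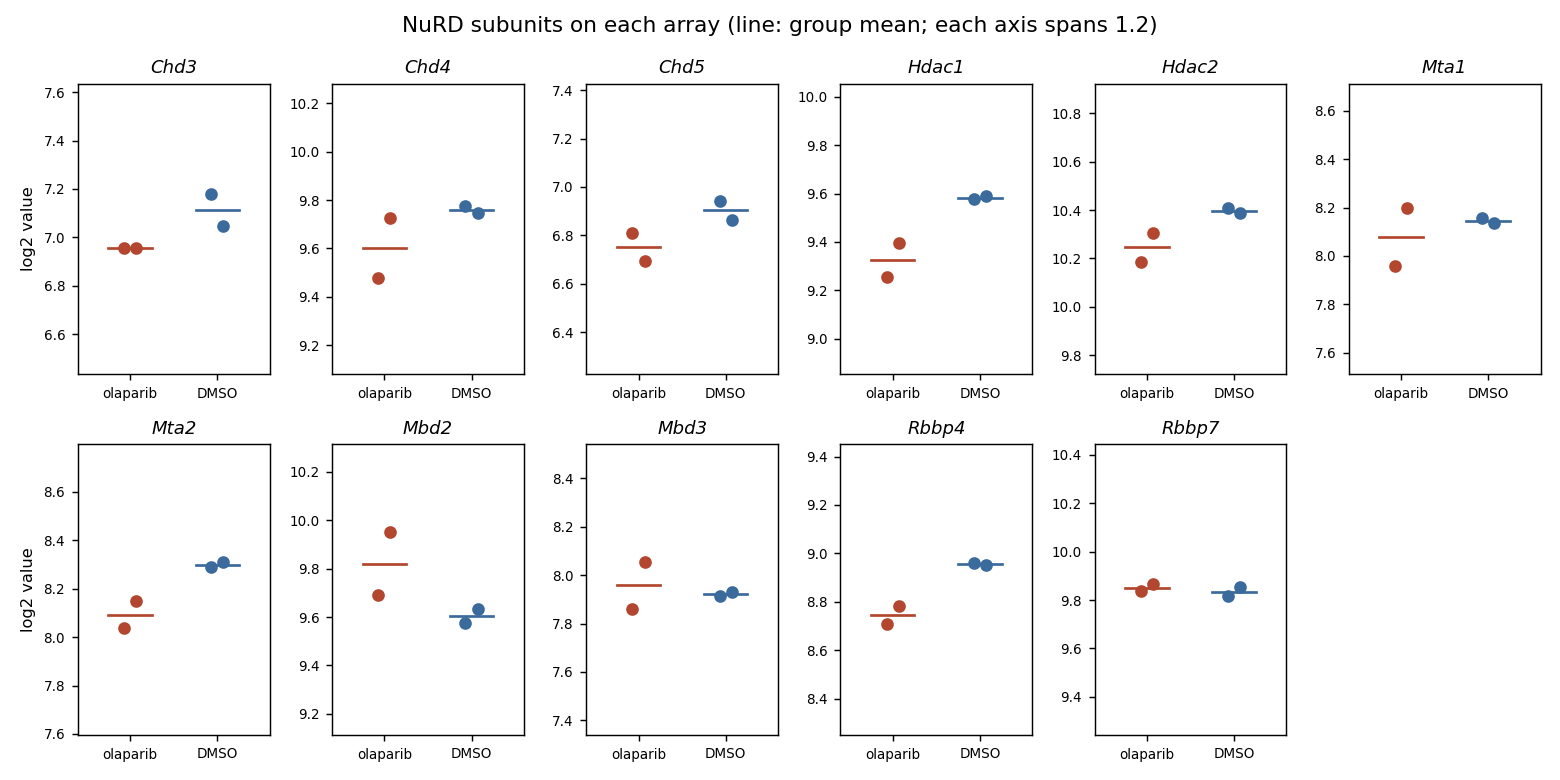
Log2 values (y axis, each panel spanning 1.2) of the 11 NuRD subunits on the 2 olaparib arrays (left, red) and the 2 DMSO arrays (right, blue), with lines at group means. Olaparib arrays lie below both DMSO arrays in 7 genes (Chd3, Chd4, Chd5, Hdac1, Hdac2, Mta2 and Rbbp4) and above them in Mbd2.

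The 5 other CHD members besides Chd7 did not pass. Chd8, a regulator of chromatin linked to human autism, lay at 8.00 and 8.16 with olaparib, against 8.28 and 8.22 with DMSO, a difference of -0.17 (adjusted p = 0.370). Chd2 had the largest positive difference of this class, 0.18 (adjusted p = 0.377), carried by olaparib array 2 at 8.29, with 7.96 on olaparib array 1 and 7.95 and 7.94 with DMSO. Without olaparib replicate 1 Chd2 passed (0.34, adjusted p = 0.00792). Chd1, which follows the elongating polymerase, lay at 7.78 and 7.82 with olaparib, against 7.66 on both DMSO arrays, a difference of 0.14 (adjusted p = 0.419). Chd6 differed by 0.05 and Chd9 by -0.01, both with overlapping groups, and the second probe set of Chd6 differed by -0.17.

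None of the 7 ISWI, INO80 and EP400 members passed in limma, and their median change was 0.05. Baz1a alone had an unadjusted p under 0.05, or 14.3% of the 7, against 19.1% of all genes tested. The ISWI ATPase Smarca5, needed for progenitor division in the mouse brain, lay at 10.03 and 9.84 with olaparib, between the 9.64 and 10.05 of the DMSO arrays. It differed by 0.09 (95% interval -0.19 to 0.36, adjusted p = 0.829). Its paralog Smarca1, which is more typical of neurons, differed by -0.11 (adjusted p = 0.540). The partner subunit Baz1a had the largest positive difference of the class, 0.19, with 7.43 and 7.51 for olaparib against 7.28 and 7.29 for DMSO (adjusted p = 0.190). Baz2a and Baz1b differed by 0.06 and -0.02. Ino80, the ATPase of the INO80 complex, differed by 0.05 (adjusted p = 0.809), and Ep400, the ATPase that works with the acetyltransferase Kat5, by -0.14 (adjusted p = 0.422), the most negative of the class.

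Paralogs that replace each other were set side by side in 12 pairs, by the change of the first minus that of the second. For single genes rather than pairs, the groups did not overlap in 47.1% of all genes tested. The within-array differences separated the groups in 6 of the 12 pairs. Each of the 6 had an exact permutation p of 0.333, the smallest possible, so none can pass any adjustment over the 12. Besides Actl6b and Actl6a these were Rbbp7 and Rbbp4 (0.23), Ring1 and Rnf2 (-0.19), Smarca2 and Smarca4 (0.18), Ezh1 and Ezh2 (0.16) and Hdac2 and Hdac1 (0.11). The within-array differences overlapped in the pairs Smarcc2 and Smarcc1, Ss18l1 and Ss18, Arid1b and Arid1a, Dpf1 and Phf10, Dpf3 and Phf10, and Smarca1 and Smarca5.

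Beyond the members, 69 further genes of these complexes were listed, of which 66 were measured and 65 tested. In limma 1 of the 65 fell, 0 rose and 64 were not past the threshold, while 6.22% of all genes tested were called. The median change of the 65 was 0.00. An unadjusted p under 0.05 was reached by 12, or 18.5%, against 19.1% of all genes tested. The gene that fell was Jarid2, a PRC2 cofactor that helps to recruit it to chromatin. It lay at 7.37 and 7.44 with olaparib, against 7.77 and 7.65 with DMSO, a change of -0.30 (SE 0.08, adjusted p = 0.0345). Its call was lost without DMSO replicate 1 (adjusted p = 0.524), without DMSO replicate 2 (adjusted p = 0.0983) and in 4 further settings. Chd1l, the remodeller that poly(ADP-ribose) activates in human cells, lay at 6.69 and 6.90 with olaparib and at 6.84 and 6.65 with DMSO, a difference of 0.05 (95% interval -0.13 to 0.24, adjusted p = 0.853). Its values are near those of the genes unrelated to brain.

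Markers of neural progenitors were bright, with group means up to 12.7 in both groups. Of 8 measured of 9 listed, Gfap fell by 1.03 and 7 did not pass, while 6.22% of all genes tested were called. Oligodendrocyte lineage markers had a median level of 7.22. Their group means ran from 6.66 to 11.0 with olaparib and from 6.51 to 11.1 with DMSO, with Olig1 the highest. Sox10 and Mog lay near the unrelated genes. Cspg4 rose by 0.33 and the other 6 measured did not pass, again beside 6.22% of all genes tested. Microglial markers lay between 6.23 and 6.81 with olaparib and between 6.17 and 6.85 with DMSO, and endothelial markers between 6.22 and 6.40 with olaparib and between 6.20 and 6.52 with DMSO, near the unrelated genes. Ependymal markers lay between 6.39 and 7.29 with olaparib and between 6.34 and 7.39 with DMSO. Foxj1 alone of these lay above the range of the unrelated genes in both groups. No microglial or ependymal gene passed, and no endothelial gene was bright enough to be tested. Array medians ran from 6.60 to 6.68, and 2 arrays per group limit the precision of every value above.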

How the data were processed

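Arrays were Affymetrix mouse gene arrays, and 40 ng of total RNA per sample was amplified first, per the labels' protocols. The authors deposited 1 log2 value per probe set and array. Their background correction, normalization and probe summary are not stated in the labels, nor are batches or scan dates.

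The platform annotation gave 21640 of the 34760 probe sets 1 gene and 1321 several, and did not list 11799. These gave 19937 genes, 19855 of them in the GRCm38.p6 RefSeq gene table used for symbols. Each gene was read from its brightest probe set by the mean over 4 arrays. Testing was limited to the 13956 genes above the 30th percentile of these means, at 6.42. limma 3.58.1 (R 4.3.3) gave changes, olaparib minus DMSO, by lmFit and eBayes with an intensity trend. All its adjusted p-values are two-sided and follow Benjamini and Hochberg, with all tested genes as the family and 0.05 as the threshold. The variance prior was worth 18.1 degrees of freedom, against 2 from each gene's own arrays. Pairs of paralogs were compared with an exact permutation test.

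The members and lists were chosen with earlier results of these data known. Named members are those called, the exchanged BAF subunits, the ATPases, the Polycomb catalytic subunits with their partners, Hdac1, Hdac2 and the extremes of each class. Other members are named by class, and further genes where called, besides Chd1l. Alternatives were no filter or the 50th percentile, quantile, cyclic loess or median scaling, eBayes without trend or robust, values floored at the 10th percentile, probe-set means, all probe sets fitted together, a threshold of 0.1, and leaving out each array. Replicate numbers only name arrays.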

Additional observations from a re-analysis of the deposited data

How the results depend on the processing

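Of the 14 settings other than the threshold, Chd7 passed in 11, Eed in 10 and Pbrm1 in 9. The count of 1 higher and 2 lower members became 0 and 0 with probe sets averaged per gene, and 0 and 0 with all probe sets in 1 fit. It became 2 higher at a threshold of 0.1, and 4 lower under quantile normalization and under cyclic loess. With 1 array left out, the higher count ran from 0 to 7, the lower from 0 to 5, and the median change from -0.0943 to -0.0095. Without a DMSO array the residual spread comes from the olaparib pair alone. For the median member that pair was the wider one (SD 0.09, against 0.05 with DMSO). For Chd7 (0.02 against 0.19), Eed (0.02 against 0.05) and Pbrm1 (0.076 against 0.079) it was the narrower one. No other setting moved these counts by over 1.5 times. Of 795 member values under these settings, 33 changed sign, in 21 members, none of them called. Outside the settings that leave out an array, these were, under quantile normalization and cyclic loess, Dpf2 (-0.0094 and -0.0080), Dpf1 (0.0048 and 0.0053) and Rbbp7 (-0.0343 and -0.0375), and with averaged probe sets Smarce1 (-0.0711) and Chd6 (-0.0607). With 1 array left out, changes spanned 0 for Smarca2 (-0.0507 to 0.25), Smarca4 (-0.22 to 0.0433), Smarcb1 (-0.26 to 0.0006), Smarcd3 (-0.20 to 0.12), Smarce1 (-0.27 to 0.48), Arid1a (-0.0444 to 0.22), Bcl7c (-0.12 to 0.0287), Phf10 (-0.0208 to 0.46), Dpf2 (-0.16 to 0.21), Dpf1 (-0.0897 to 0.0812), Mta1 (-0.19 to 0.0510), Mbd3 (-0.0605 to 0.13), Rbbp7 (-0.0015 to 0.0334), Chd6 (-0.0479 to 0.14), Chd9 (-0.0689 to 0.0440), Smarca5 (-0.12 to 0.29), Baz1b (-0.13 to 0.0798), Baz2a (-0.0933 to 0.21), Bmi1 (-0.14 to 0.28), Cbx2 (-0.19 to 0.0104), Cbx7 (-0.0092 to 0.22) and Chd1l (-0.0562 to 0.16). The cause was not tested. Over all genes, 868 calls became 12 with all probe sets in 1 fit, 573 with no filter, 1311 under quantile normalization, 2112 and 1598 without olaparib replicates 1 and 2, and 258 and 293 without DMSO replicates 1 and 2. The lone array left in a group is assumed to vary like the other group. Background correction could not be repeated, and the filter at the 50th percentile gave no value for Smarcd2, Actl6b, Cbx7 and Chd1l. Signal in the range of the unrelated genes limits Actl6b, Smarcd2, Dpf1, Dpf3, Chd5, Smarca1, Cbx7, Cbx8 and Chd1l. Of these, Dpf1, Dpf3, Chd5, Smarca1, Cbx8 and Chd1l lay above every unrelated gene but Gcg with olaparib, with DMSO or with both. No paired analysis was possible because the labels number no pairs across groups.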

Other observations

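The table holds 3 probe sets that name Smarca5 together with its pseudogene and a predicted gene, which no value above uses. The brightest lay at 10.16 and 10.21 with olaparib, against 10.11 and 9.89 with DMSO, a difference of 0.19. The next lay at 9.78 and 9.77 with olaparib, against 9.39 and 9.61 with DMSO, a difference of 0.27. On both the olaparib arrays were the higher ones, while on the probe set that names Smarca5 alone the groups overlapped. The third, at a mean level near the unrelated genes, differed by 0.05.

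Over the whole table, 56 called genes had a second probe set above the level tested. The second moved the same way in 49 of the 56 and by at least 50% as much in 23. The median ratio of the second change to the first was 0.43. Chd7 and Pbrm1 are among these 56, with second probe sets at -0.06 and -0.04.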
